A study of Homo sapiens with 9 samples.

Results

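The Frizzled receptors are the cell-surface receptors for secreted Wnt proteins, and their human genes are FZD1 to FZD10. Members were taken as every probe set whose single gene symbol was one of these names. All 10 genes were found, each on 1 probe set, among 18417 genes measured. Expression was profiled on 9 Affymetrix whole-transcript arrays from H9-TCF7L1 cells, a line derived from the human embryonic stem cell line H9 that carries a doxycycline-inducible TCF7L1 transgene. TCF7L1 belongs to the TCF/LEF transcription factors and acts mainly as a repressor of Wnt target genes. The first group was kept in a primitive streak (PS) differentiation medium for 48 h with 1 ug/ml doxycycline for 48 h. The second had PS medium for 48 h without doxycycline, and the third was untreated in mTeSR1, a medium that maintains pluripotency. Each group had 3 arrays, and all 3 groups carried the transgene. No group received doxycycline without the transgene or in mTeSR1, and the labels do not name the components of PS medium or the number of clones. The stated aim was to identify genes controlled by TCF7L1 through its induction.

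Frizzled proteins span the membrane several times and bind Wnt through an extracellular cysteine-rich domain. With the co-receptors LRP5 or LRP6 they recruit Dishevelled, which protects beta-catenin from destruction so that it can act with TCF/LEF factors. With other partners, such as ROR2 or VANGL proteins, they act in planar cell polarity and cell movement. By sequence the family falls into subgroups: FZD1, FZD2 and FZD7; FZD5 and FZD8; FZD4, FZD9 and FZD10; and FZD3 and FZD6. In human embryonic stem cells FZD7 is known as a receptor that helps to maintain the pluripotent state. Wnt signals are also known to drive formation of the primitive streak, the embryonic structure that gives rise to mesoderm and endoderm.

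The induced gene and the cell states were checked first. TCF7L1 had deposited intensities of 13100.2, 12433 and 2699 in PS medium with doxycycline, 1275, 1542 and 1611 in PS medium, and 3718, 3878 and 3572 in untreated cells. Replicate 3 of the doxycycline group therefore lay far below the other doxycycline arrays and below the untreated arrays. By limma TCF7L1 was 5.24-fold higher with doxycycline than in PS medium (adjusted p = 0.00464), and these arrays did not overlap. TCF7L1 did not pass with doxycycline over untreated cells (2.05-fold higher, limma adjusted p = 0.124). Nor did it pass in PS medium over untreated cells (2.55-fold lower, limma adjusted p = 0.0502). Without doxycycline replicate 3 both comparisons with untreated cells passed (limma adjusted p = 4.62e-07 and 1e-06). The 10 primitive streak markers summed to 20960 to 30849 with doxycycline, 88662 to 99751 in PS medium and 1766 to 1919 in untreated cells. EOMES made up most of the sum in PS medium, at 50981, 55273 and 57102. By limma 9 of the 10 fell with doxycycline over PS medium, and all 10 rose in PS medium over untreated cells. The 8 amnion and trophectoderm markers summed to 28107 to 32224 with doxycycline, 15731 to 16383 in PS medium and 1408 to 1559 in untreated cells. Of these, 6 rose with doxycycline over PS medium. TFAP2A made up most of this marker sum with doxycycline, at 16603, 18260 and 16479. The 8 measured pluripotency markers of 11 listed summed to 29425 to 30261 with doxycycline, 22465 to 26133 in PS medium and 34543 to 36169 in untreated cells. TDGF1, POU5F1 and NANOG were listed but not among the genes measured. With doxycycline over PS medium 3 of the 8 rose, 4 did not pass and 1 fell. The faller was L1TD1, 2.07-fold lower (limma adjusted p = 2.85e-05). The 6 definitive endoderm markers summed to 5463 to 9113 with doxycycline, 19728 to 40631 in PS medium and 1249 to 1331 in untreated cells. GATA4 was the largest part of the sum in PS medium, at 9666, 15464.5 and 21460. The 7 fibroblast markers summed to 2990 to 3652 with doxycycline, 2973 to 3176 in PS medium and 5827 to 6016 in untreated cells. THY1 made up most of the untreated sum, at 4281, 4358 and 4130. By limma 2 of the 7 fell in PS medium over untreated cells, 1 rose and 4 did not pass. The 5 measured endothelium and blood markers of 6 listed summed to 2263 to 2752 with doxycycline, 4914 to 5589 in PS medium and 3297 to 3607 in untreated cells. KDR made up most of the sum in PS medium, at 4482, 4178 and 3839. By limma 1 of the 5 rose in PS medium over untreated cells, 0 fell and 4 did not pass. The 6 neuroectoderm markers summed to 1991 to 2500 with doxycycline, 1937 to 2356 in PS medium and 1854 to 2113 in untreated cells. By limma 2 of the 6 rose with doxycycline over untreated cells, 0 fell and 4 did not pass. With doxycycline over PS medium 0 rose, 1 fell and 5 did not pass. In PS medium over untreated cells all 6 did not pass. No marker was at 0 on any array. The cell states thus differed between all groups, and their part in the Frizzled results below was not tested.

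With doxycycline in PS medium, FZD7 was 3.21-fold lower, FZD4 1.68-fold lower and FZD8 1.48-fold lower, while FZD2 was 2.23-fold higher and FZD6 1.92-fold higher. These 5 of the 10 genes passed the test, against 17.4% of all genes in this comparison, where 8.91% were higher and 8.44% lower. The test was limma on quantile-normalized log2(intensity + 16), with Benjamini-Hochberg adjustment over all 18417 genes and a threshold of 0.05. The 3 and 3 normalized values did not overlap for 5 of the 10 genes, against 30.9% of all genes. Each intensity is that of a whole culture, so fewer cells of a type and less RNA per cell cannot be told apart.

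**Figure D1:**
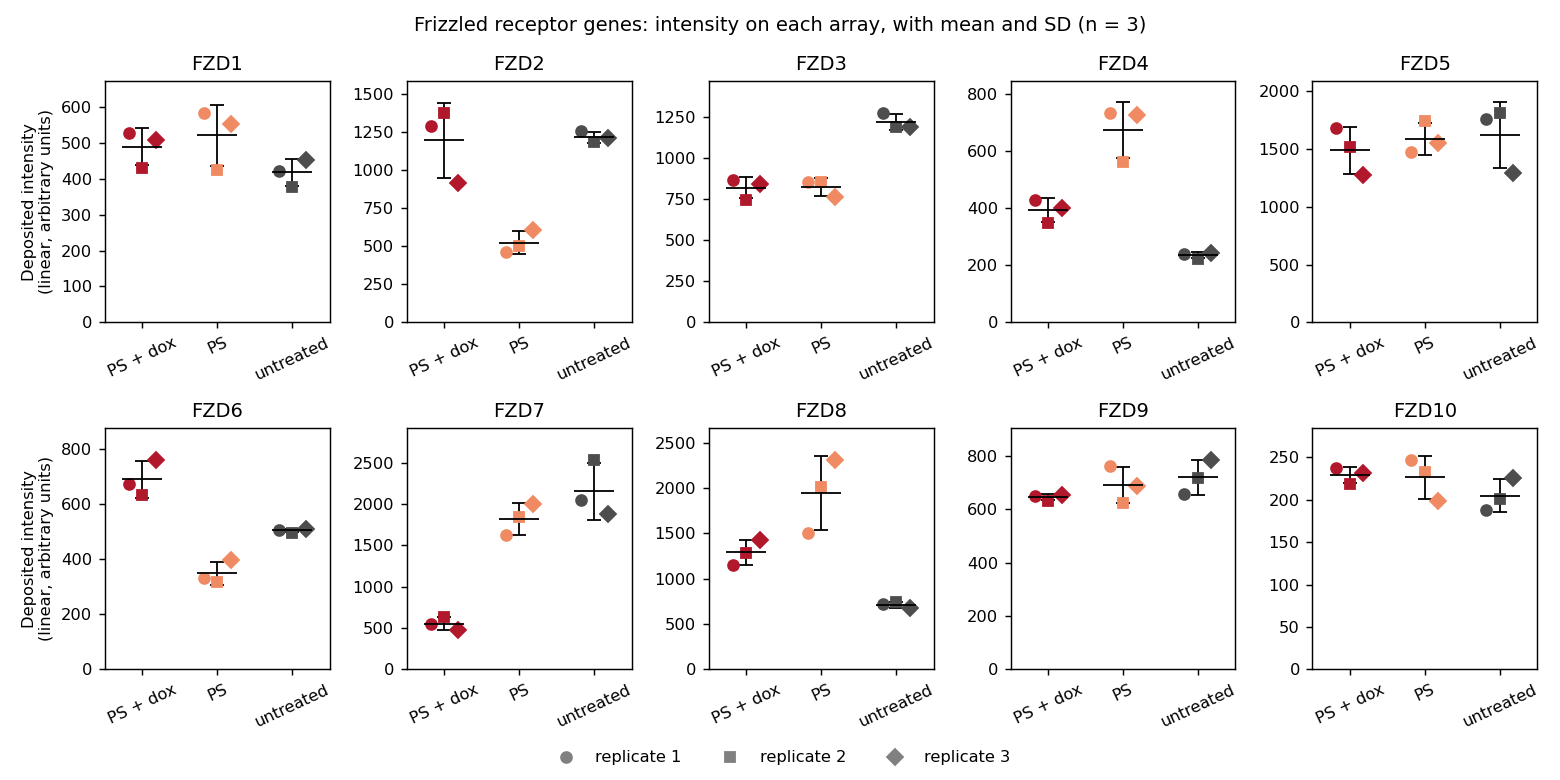
Deposited intensity (linear scale, arbitrary units) of the 10 Frizzled genes on each array, in PS medium with doxycycline, PS medium and untreated cells. Symbols are replicates, and the bar and whiskers are the mean and SD of 3 arrays. FZD7 lies between 481 and 629.9 with doxycycline, against 1619 to 2536 on the other 6 arrays. FZD5, FZD9 and FZD10 passed in none of the 3 comparisons by limma.

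FZD7, of the subgroup with FZD1 and FZD2, differed most of the 10 in this comparison. Its intensities were 555, 629.9 and 481 in PS medium with doxycycline, against 1619, 1839 and 2005 in PS medium. All doxycycline arrays were far below all PS arrays. The log2 difference was -1.68 ± 0.12 (SE, n = 3 per group, limma adjusted p = 7.51e-06). Untreated cells had 2047, 2536 and 1876, which overlapped the PS arrays. PS medium against untreated cells gave a log2 difference of -0.26 with a 95% interval of -0.52 to 0.0042 (limma adjusted p = 0.134). Against untreated cells, FZD7 in PS medium with doxycycline was 3.84-fold lower (log2 -1.94 ± 0.12, limma adjusted p = 8.81e-07). Among the 10 genes it had the widest range of group means, 1.94 on the log2 scale.

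FZD2 moved the other way with doxycycline. This receptor is known to transmit WNT5A signals. Its intensities were 1291, 1378 and 913 in PS medium with doxycycline, against 459, 503 and 606 in PS medium. The arrays did not overlap (log2 1.16 ± 0.14, SE, n = 3 per group, limma adjusted p = 0.000218). Untreated cells had 1255, 1184 and 1209, and in PS medium FZD2 was 2.33-fold lower than that (limma adjusted p = 7.05e-05). PS medium with doxycycline differed from untreated cells by -0.068 on the log2 scale, with a 95% interval of -0.37 to 0.24 (limma adjusted p = 0.767). The lowest doxycycline array was replicate 3, the one with the least TCF7L1. Without it the FZD2 rise over PS medium was 2.52-fold.

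FZD1, the third member of that subgroup, passed in none of the comparisons in the main fit, which had no term for replicate number. It had 528, 431 and 508 in PS medium with doxycycline, 585, 424 and 554 in PS medium, and 423, 378 and 453 in untreated cells. The groups overlapped in each comparison. The log2 difference was -0.089 with doxycycline over PS medium (95% interval -0.37 to 0.19, limma adjusted p = 0.715), and 0.29 for PS medium over untreated cells (0.011 to 0.57, limma adjusted p = 0.114). The second value passed without PS replicate 2, at 0.42 (limma adjusted p = 0.0201). With the replicate number as a block it also passed, at 0.29 (limma adjusted p = 0.011). Within this one subgroup, doxycycline was thus accompanied by a fall of FZD7, a rise of FZD2 and an FZD1 interval that included 0.

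FZD4 and FZD8 shared a pattern: both were lowest in untreated cells, highest in PS medium and in between with doxycycline. FZD4 is the receptor for Norrin, a secreted protein unrelated to Wnt, as well as for Wnt proteins. Its intensities were 430.4, 349 and 399.7 in PS medium with doxycycline, 736, 563 and 727 in PS medium, and 238, 224 and 245 in untreated cells. None of the 3 groups overlapped. FZD4 was 2.76-fold higher in PS medium than in untreated cells (log2 1.46 ± 0.11, SE, n = 3 per group, limma adjusted p = 4.17e-06). With doxycycline it differed from PS medium by -0.75 ± 0.11 on the log2 scale (limma adjusted p = 0.000909). It was still 1.64-fold higher than in untreated cells (limma adjusted p = 0.00068).

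FZD8, whose cysteine-rich domain is a standard model for Wnt binding, had 1154, 1284 and 1432 in PS medium with doxycycline. It had 1504, 2015 and 2314 in PS medium, and 721, 744 and 676 in untreated cells. The 3 groups did not overlap, although the highest doxycycline array came close to the lowest PS array. FZD8 was 2.59-fold higher in PS medium than in untreated cells (log2 1.37 ± 0.14, SE, n = 3 per group, limma adjusted p = 2.54e-05). The fall with doxycycline was smaller (log2 -0.56 ± 0.14, limma adjusted p = 0.0147) and did not pass without doxycycline replicate 1 (-0.49, limma adjusted p = 0.0655). Against untreated cells FZD8 in PS medium with doxycycline was 1.75-fold higher (limma adjusted p = 0.00107).

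The windows of 250 bases before the RefSeq gene starts of FZD4 and FZD8 are shown because these genes moved together, with that of FZD5, which passed no comparison, beside them (RefSeq, GRCh38.p14, 5′ to 3′ on the gene's strand). Capitals mark GGGCGG, a GC box bound by SP factors, CCAAT, and their reverse complements CCGCCC and ATTGG.
FZD4, chr11:86955396-86955645, minus strand: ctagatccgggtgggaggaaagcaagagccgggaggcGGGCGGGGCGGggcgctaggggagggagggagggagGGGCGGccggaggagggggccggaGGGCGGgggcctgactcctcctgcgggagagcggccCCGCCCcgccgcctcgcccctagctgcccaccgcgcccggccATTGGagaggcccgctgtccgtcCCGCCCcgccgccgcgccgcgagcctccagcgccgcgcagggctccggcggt
FZD8, chr10:35642297-35642546, minus strand: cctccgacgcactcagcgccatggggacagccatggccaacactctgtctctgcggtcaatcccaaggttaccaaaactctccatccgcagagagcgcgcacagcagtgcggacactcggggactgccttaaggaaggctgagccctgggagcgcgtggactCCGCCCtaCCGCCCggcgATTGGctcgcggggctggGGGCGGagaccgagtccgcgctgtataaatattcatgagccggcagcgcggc
FZD5, chr2:207769907-207770156, minus strand: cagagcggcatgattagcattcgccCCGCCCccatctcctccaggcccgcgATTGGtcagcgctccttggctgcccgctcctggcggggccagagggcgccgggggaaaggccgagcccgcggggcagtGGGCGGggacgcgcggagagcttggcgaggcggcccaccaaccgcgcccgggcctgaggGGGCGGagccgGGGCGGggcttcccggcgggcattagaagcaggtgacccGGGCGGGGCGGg

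Windows were used for 5 of the 10 genes: FZD1, FZD4, FZD5, FZD8 and FZD9. Chromosome 8, which holds FZD3 and FZD6, was left out of the Frizzled windows. No such filter was applied to the 35116 background windows. GGGCGG or its reverse complement occurred in 5 of the 5, and in 42.6% of all 35116 windows. FZD4 and FZD5 held 6 overlapping or separate copies each, and FZD8 held 3. CCAAT or ATTGG occurred in 4 of the 5, and in 32% of all windows. The letters CTTTGAT and CTTTGTT, which TCF/LEF factors bind, and which share the stretch CTTTG, were searched on both strands. They were in 0 of the 5 windows, and in 2.26% and 4.5% of all windows. This says only that those letters are not in these 250 bases. The windows were rich in G and C, at 80.8% for FZD4, 65.2% for FZD8 and 76.8% for FZD5, against a median of 58% over all windows. FZD4, FZD5 and FZD8 each carried both marked motifs, and any link of these motifs to the changes was not tested.

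FZD6 and FZD3, known for planar polarity and for axon guidance and hair patterning in mice, were both lower in PS medium relative to untreated cells. FZD6 had 675, 634 and 762 in PS medium with doxycycline, 334, 317 and 396 in PS medium, and 506, 498 and 511 in untreated cells. None of the groups overlapped, and the highest level was with doxycycline. FZD6 was 1.92-fold higher with doxycycline than in PS medium (log2 0.94 ± 0.10, SE, n = 3 per group, limma adjusted p = 7.1e-05). PS arrays were 1.45-fold below untreated ones (limma adjusted p = 0.00162). In PS medium with doxycycline FZD6 was 1.33-fold higher than in untreated cells (limma adjusted p = 0.00788).

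FZD3 had 868, 747 and 839 in PS medium with doxycycline, 857, 854 and 762 in PS medium, and 1277, 1189 and 1189.9 in untreated cells. Both PS groups were below the untreated arrays and overlapped each other. In PS medium FZD3 was 1.50-fold below its untreated level (log2 -0.59 ± 0.09, SE, n = 3 per group, limma adjusted p = 0.000442). With doxycycline it was 1.51-fold lower than in untreated cells (limma adjusted p = 0.000405). The doxycycline difference from PS medium was -0.010 with a 95% interval of -0.20 to 0.18 (limma adjusted p = 0.961).

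FZD5, FZD9 and FZD10 passed in none of the 3 comparisons by limma. FZD5, the relative of FZD8, had 1678, 1514 and 1277 in PS medium with doxycycline, 1470.3, 1741 and 1549 in PS medium, and 1760.5, 1816 and 1293 in untreated cells. All groups overlapped, and the log2 differences had intervals from -0.37 to 0.22 with doxycycline over PS medium and from -0.34 to 0.24 for PS medium over untreated cells. FZD9, of the subgroup with FZD4, had 651, 632 and 654 in PS medium with doxycycline, 760.2, 625 and 688 in PS medium, and 656, 717 and 785 in untreated cells. Its intervals were -0.31 to 0.10 with doxycycline over PS medium and -0.29 to 0.12 for PS medium over untreated cells. With doxycycline over untreated cells the FZD9 interval was -0.39 to 0.019, and these arrays did not overlap. FZD10, known from the primitive streak of mouse embryos, had 238, 219 and 232 in PS medium with doxycycline. It had 247, 233 and 199 in PS medium, and 188, 201 and 226 in untreated cells. For PS medium over untreated cells its log2 difference was 0.17 (95% interval -0.051 to 0.38, limma adjusted p = 0.25). FZD10 was dim on this array type, at the 37.7th percentile of genes by mean intensity, and its groups overlapped except for doxycycline against untreated arrays after normalization.

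**Figure D2:**
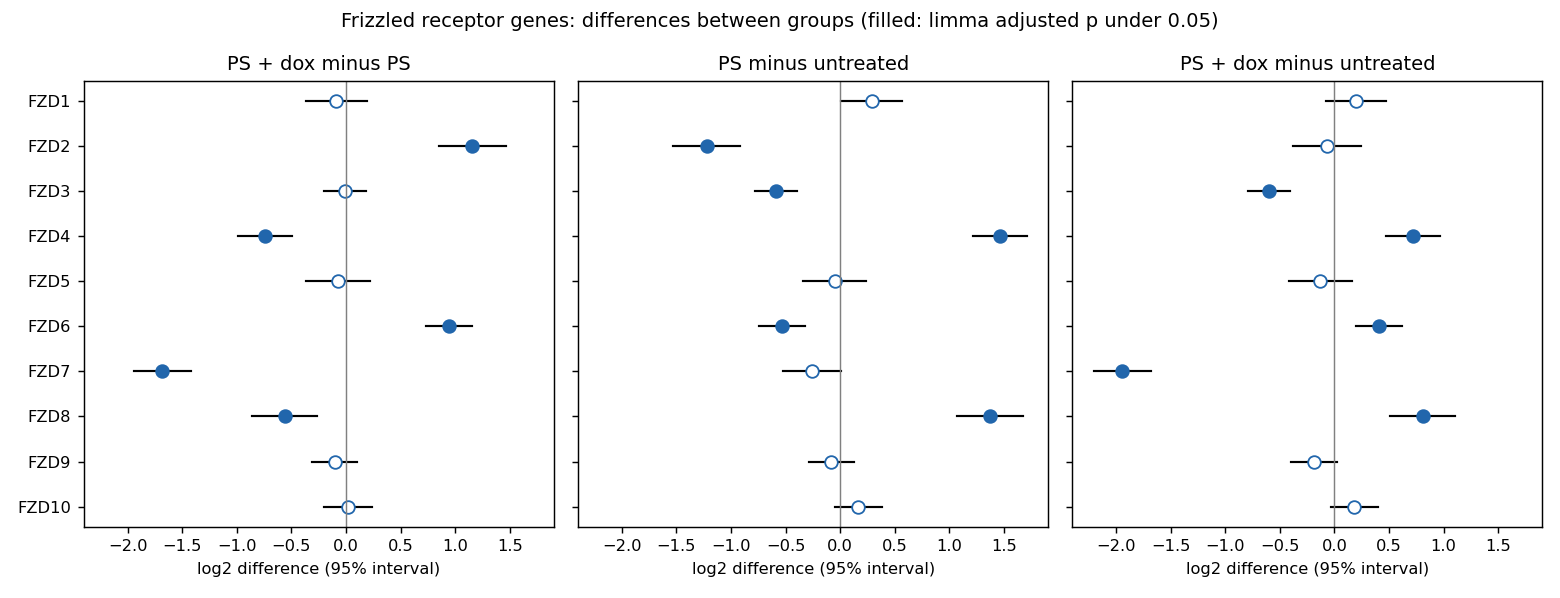
Log2 differences between groups for the 10 Frizzled genes, with 95% intervals from limma that are not adjusted for the number of genes, for PS medium with doxycycline minus PS medium, PS medium minus untreated cells, and PS medium with doxycycline minus untreated cells. Filled points passed at an adjusted p under 0.05: 5 genes in each panel, with FZD7 at -1.68 in the first and -1.94 in the third.

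The effect of the differentiation medium alone was read from PS arrays set against untreated arrays. There 5 of the 10 genes passed, against 29.8% of all genes: FZD4 and FZD8 were higher (14.2% of all genes) and FZD2, FZD3 and FZD6 lower (15.7%). Doxycycline arrays set against untreated arrays also called 5 of the 10, against 30.3% of all genes. FZD4, FZD6 and FZD8 were higher (15.3% of all genes) and FZD3 and FZD7 lower (14.9%). The normalized values did not overlap for 5 of the 10 genes in the first of these comparisons, against 43.3% of all genes, and for 7 of the 10 in the second, against 45.0%. Those 7 were the 5 called genes with FZD9 and FZD10. The median absolute log2 difference of the 10 genes was 0.33 with doxycycline over PS medium, 0.41 for PS medium over untreated cells and 0.30 for PS medium with doxycycline over untreated cells. Over all genes it was 0.12, 0.15 and 0.16 in the same order. By mean intensity FZD10 was at the 37.7th percentile of genes, and the others ran from 54.4 (FZD4) to 87.3 (FZD5). The set of all genes was not matched to them for intensity. The signed medians of the 10 genes were -0.082, -0.068 and 0.058, so the family as a whole had no common direction.

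**Figure D3:**
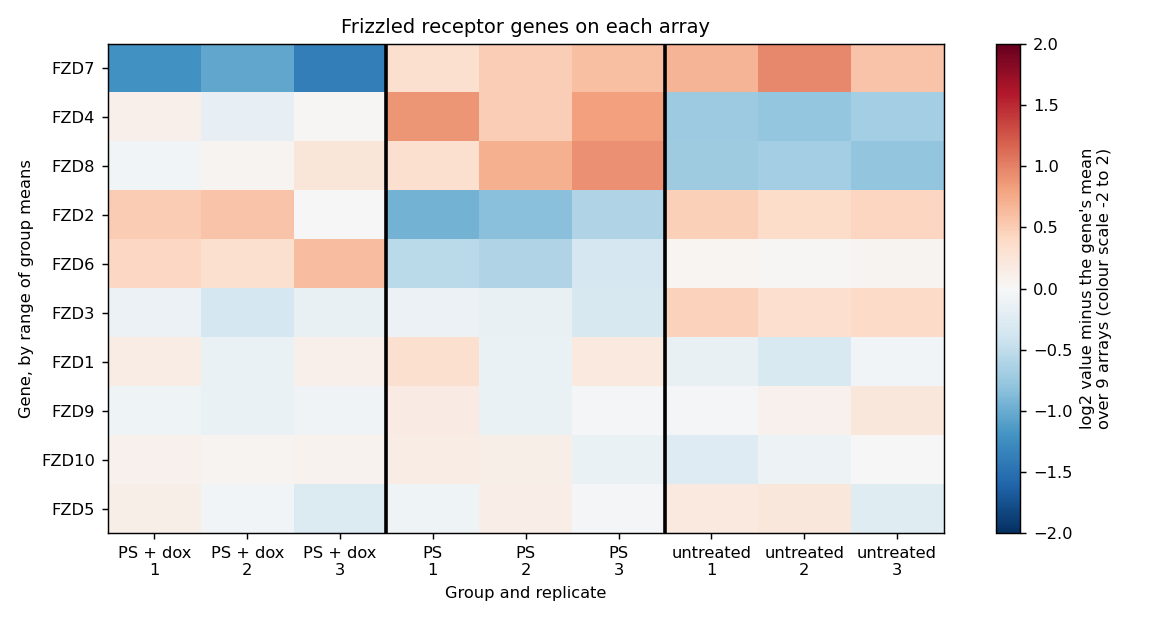
Log2 intensity of each Frizzled gene minus its mean over the 9 arrays, by group and replicate, with genes ordered by the range of their group means (1.94 for FZD7 to 0.13 for FZD5). FZD4 and FZD8 are high in PS medium, FZD2 and FZD6 are low there, and FZD7 is low in PS medium with doxycycline.

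For 4 genes, FZD2, FZD4, FZD6 and FZD8, the effect of the medium and the effect of doxycycline had opposite signs and both passed. Both comparisons contain the same PS arrays, with opposite sign, so the pairs of values are not separate evidence. Set side by side, with doxycycline over PS medium first, they were 1.16 and -1.22 for FZD2, -0.75 and 1.46 for FZD4, 0.94 and -0.53 for FZD6, and -0.56 and 1.37 for FZD8. The third comparison, which sets no array of PS medium alone against another, placed FZD2 within its interval of the untreated level, FZD4 and FZD8 above it, and FZD6 above it.

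Replicate 3 of the doxycycline group, with TCF7L1 at 2699, was also the lowest of its group for FZD7, FZD2 and FZD5 and the highest for FZD6, FZD8 and, by a narrow margin, FZD9. Leaving it out, the fold for doxycycline over PS medium became 3.02-fold lower for FZD7, 1.70-fold lower for FZD4 and 1.56-fold lower for FZD8. For FZD6 it became 1.81-fold higher. The 5 called genes were the same 5 without this array, and TCF7L1 itself was then 8.79-fold higher, in place of 5.24-fold.

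The genes most like FZD7, FZD4 and FZD8, the 3 with the widest ranges, were found by the root mean square difference of centred log2 values over the 9 arrays. For FZD4 these were DIPK2A (0.080), ZNF654 (0.10) and KAZN (0.12), against a median of 0.63 over all genes. For FZD8 they were CDC42EP4 (0.11), CEP55 (0.13) and MYO3A (0.14), against 0.61. For FZD7 they were PDZD4 (0.21), GJA5, a gap junction protein (0.22), and SPRY4, a feedback inhibitor of ERK signalling (0.22), against 0.88. No gene followed FZD7 as closely as DIPK2A followed FZD4, and no Frizzled gene was among these 9 nearest genes. SPRY4 differed by -1.57 with doxycycline over PS medium and by 0.0094 for PS medium over untreated cells.

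Among genes of proteins that work at the membrane with Frizzled receptors, counts are read against the 17.4% of all genes called with doxycycline over PS medium (8.91% higher, 8.44% lower). Of 7 co-receptors, 3 fell, 0 rose and 4 did not pass with doxycycline by limma (1 rose at an unadjusted p under 0.05). ROR2, a WNT5A co-receptor, had 600.0, 777 and 519.8 in PS medium with doxycycline, 1945, 2069 and 2582 in PS medium, and 169, 179 and 187 in untreated cells. It was 3.46-fold lower with doxycycline than in PS medium (limma adjusted p = 1.34e-05) and 11.4-fold higher in PS medium than in untreated cells (limma adjusted p = 3.61e-08). ROR1, its relative, was lowest with doxycycline at 1068, 1099 and 856, against 1336, 1641 and 1526 in PS medium and 3302, 3409 and 3163 in untreated cells. It fell 1.48-fold with doxycycline over PS medium (limma adjusted p = 0.00216) and 2.21-fold in PS medium over untreated cells (limma adjusted p = 9.09e-06). LRP5 and LRP6, the co-receptors of the beta-catenin route, passed in none of the 3 comparisons. Their differences with doxycycline over PS medium were 0.24 ± 0.08 and -0.045 ± 0.089 (limma adjusted p = 0.069 and 0.805).

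Of 7 measured partners of FZD4 and FZD7, 3 rose, 1 fell and 3 did not pass with doxycycline, against 8.91% of all genes higher and 8.44% lower. ADGRA2, a co-activator of WNT7 signals, rose 5.62-fold over PS medium (limma adjusted p = 8.24e-05). GPC3, a glypican that binds Wnt and Frizzled, rose 2.09-fold (limma adjusted p = 0.000105). TSPAN12, which aids Norrin signalling through FZD4, had 387, 497 and 313 in PS medium with doxycycline, 701, 639.9 and 600.2 in PS medium, and 390.5, 443 and 441 in untreated cells. Like FZD4 it rose in PS medium over untreated cells (1.50-fold, limma adjusted p = 0.00984) and fell with doxycycline over PS medium (1.63-fold, limma adjusted p = 0.00563). NDP, which encodes Norrin, differed by 0.0014 ± 0.117 with doxycycline over PS medium (limma adjusted p = 0.997).

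Of 11 genes of Frizzled turnover and the R-spondin arm, 1 rose and 0 fell with doxycycline by limma (2 rose and 4 fell at an unadjusted p under 0.05), a share no larger than the 17.4% of all genes called. The riser was RNF43, a ligase that removes Frizzled receptors from the cell surface, with 288, 293 and 328 in PS medium with doxycycline. It had 158, 141.5 and 173 in PS medium, and 124, 107 and 143 in untreated cells. It was 1.84-fold higher with doxycycline than in PS medium (limma adjusted p = 0.000186) and did not overlap. LGR5, an R-spondin receptor, was 14.9-fold higher in PS medium than in untreated cells (limma adjusted p = 0.000658). An offset of 64 made it 8.20-fold, and leaving out PS replicate 1 made it 23.1-fold. ZNRF3, the relative of RNF43, differed by -0.057 with doxycycline over PS medium (limma adjusted p = 0.66). It was 1.22-fold lower in PS medium over untreated cells (limma adjusted p = 0.00882), a call lost after median centring (0.0737), and 1.27-fold lower with doxycycline over untreated cells (limma adjusted p = 0.00314).

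Further out in the pathway, 1 of 19 Wnt ligands rose and 3 fell with doxycycline over PS medium, close to the 17.4% of all genes called, with the largest falls in WNT5A (2.77-fold lower, limma adjusted p = 7.11e-05) and WNT8A (2.22-fold lower, 0.000176). The riser, WNT5B (1.49-fold, limma adjusted p = 0.02), did not pass without PS replicate 1 (adjusted p = 0.0804) or 3 (0.0525), or doxycycline replicate 1 (0.0584) or 2 (0.069). WLS, which carries Wnt proteins to the cell surface, was 2.25-fold higher with doxycycline than in PS medium (limma adjusted p = 1.13e-05). Of 17 extracellular antagonists, 6 fell and 1 rose with doxycycline, against 8.44% and 8.91% of all genes. They included FRZB, which resembles the Frizzled cysteine-rich domain (2.81-fold lower, limma adjusted p = 0.00251), and SFRP1 (2.48-fold higher, 0.00947). Inside the cell, 1 of 12 Dishevelled and destruction complex genes passed with doxycycline, against 17.4% of all genes. It was APC, 1.55-fold lower (limma adjusted p = 0.00203). By limma 0 rose, with 2 at an unadjusted p under 0.05. Of 13 planar polarity genes, 3 rose and 3 fell, against 8.91% and 8.44% of all genes. VANGL1 was 2.11-fold lower (limma adjusted p = 3.38e-05), DACT1, which binds Dishevelled, was 2.56-fold lower (limma adjusted p = 0.000958) and PRICKLE2 was 1.48-fold higher (limma adjusted p = 0.000909). SMO, the Hedgehog pathway receptor of the same class, differed by 0.11 ± 0.06 with doxycycline over PS medium (limma adjusted p = 0.324).

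For PS medium against untreated cells, 29.8% of all genes were called (14.2% higher, 15.7% lower). Of 7 co-receptors 3 rose and 1 fell, and of 17 antagonists 8 rose and 3 fell. Of 19 ligands 4 rose and 0 fell by limma (0 fell at an unadjusted p under 0.05), against 14.2% of all genes higher and 15.7% lower. WNT8A was 39.2-fold higher (limma adjusted p = 1.26e-09), or 16.1-fold with a log offset of 64 and 74.4-fold with an offset of 1. DKK1, which blocks LRP5 and LRP6, was 22.7-fold higher (limma adjusted p = 6.32e-07), or 13.6-fold with an offset of 64. Among planar polarity genes 4 rose and 5 fell, with VANGL1 2.53-fold higher (limma adjusted p = 2.81e-06) and PRICKLE1 2.31-fold lower (limma adjusted p = 8.6e-05).

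**Figure D4:**
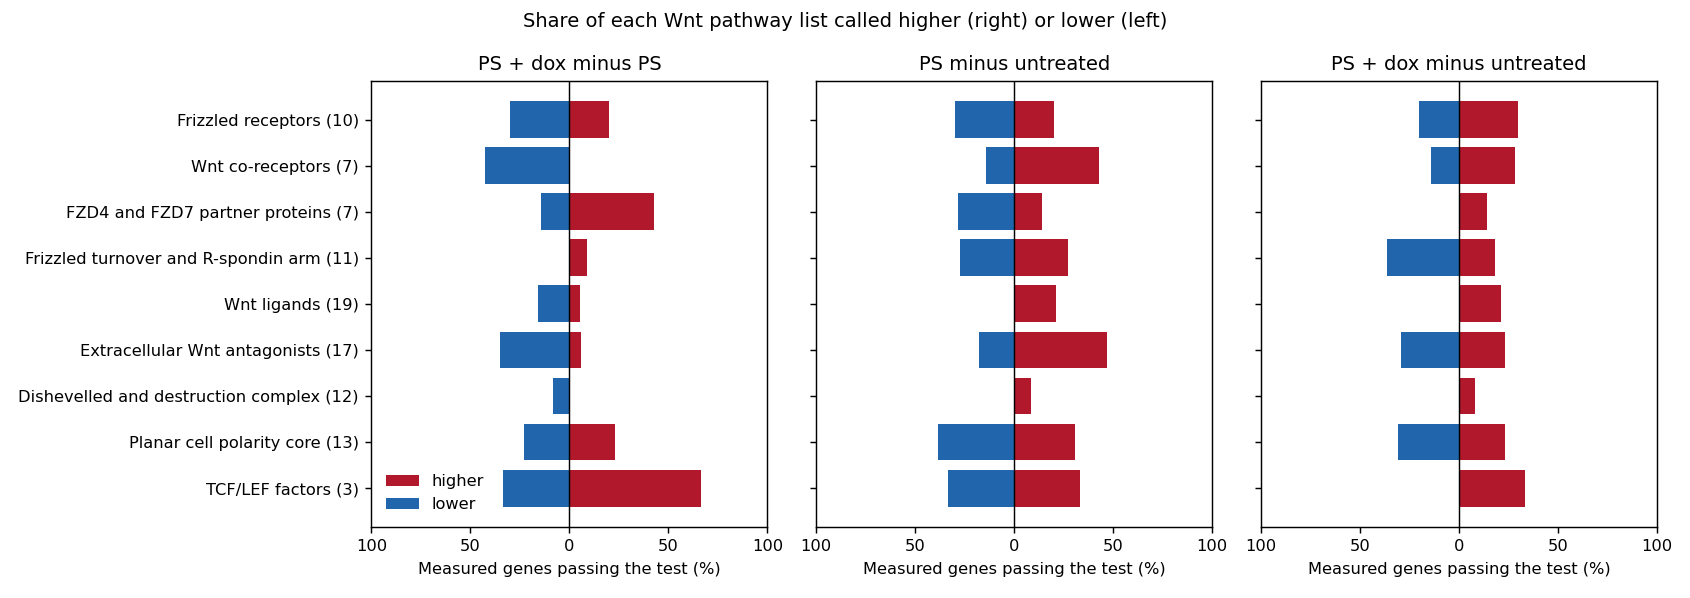
Percent of the measured genes of each Wnt pathway list (number in brackets) that passed limma at an adjusted p under 0.05, higher to the right and lower to the left, in the 3 comparisons. Frizzled receptors had calls in both directions in every comparison, 2 higher and 3 lower with doxycycline over PS medium, where co-receptors had 3 lower and no higher call.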

How the data were processed

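RNA of H9-TCF7L1 cells was measured on 9 Affymetrix arrays, 3 per group. The authors deposited 1 linear intensity for each probe set, made with Affymetrix Expression Console 1.1.1 and PLIER 2.0 per the submitters' processing notes. The sources used here do not give the background correction or the normalization between arrays. Array medians ran from 200.4 to 216. Of 33297 probe sets, 19460 had 1 gene symbol, 1754 several and 12083 none listed. Symbols were updated by gene number to GRCh38.p14 (19429 matched), and the brightest probe set stood for each gene, leaving 18417.

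Values were quantile-normalized as log2(intensity + 16), so folds are on that scale and understate dim genes. In R 4.3.3, limma 3.58.1 fitted 1 mean per group with a variance trend in eBayes, with 6 residual degrees of freedom and Benjamini-Hochberg adjustment at 0.05. The procedure was tested on simulated data with independent noise between arrays and few changed genes. The arrays here differ in both respects, so that test does not give an error rate for them. Plots used matplotlib 3.10.9 under Python 3.11.15. Probe sharing between Frizzled relatives was not tested. Replicates are not stated to be separate cultures, so p-values may measure technical spread, and 3 arrays per group limit the precision.

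The Frizzled genes, pathway lists and tests were chosen with earlier results of these data known. Named genes were the 10 Frizzled genes, TCF7L1, up to 2 rises and 2 falls per list and comparison, and the 3 genes most like each of 3 Frizzled genes. LRP5, LRP6, NDP and SMO were added after their values were seen. GGGCGG and CCAAT were also added later. Arrays of the same replicate number correlated over genes, in deviations from group means, at 0.245, 0.428 and 0.246 between the PS groups and at 0.246, 0.309 and 0.297 between doxycycline and untreated arrays. These were taken as paired, yet the fit behind the Results had no replicate term, so its p-values and intervals are unpaired. The replicate block was run only as an alternative. Between PS and untreated arrays the values were 0.0856, 0.397 and 0.271, and pairing was not assumed. Arrays paired by number in the other comparisons would be paired in this one too, so this choice is not self-consistent. Alternatives were 2 other log offsets, values as deposited, median centring, removal of the dimmest 25% of genes, all probe sets, no trend, 2 groups alone, a replicate block and leaving out each array.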

Additional observations from a re-analysis of the deposited data

How the results depend on the processing

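The Frizzled calls with doxycycline over PS medium numbered 5 in every alternative except without doxycycline replicate 1 (leave-one-out range 4 to 5), where FZD8 was lost. PS medium over untreated cells gave 5 to 6 when arrays were left out, FZD1 being gained without PS replicate 2, and PS medium with doxycycline over untreated cells gave 5 throughout. With the replicate number as a block there were 5 calls in both comparisons taken as paired, the same genes as without it. PS medium over untreated cells, where numbers were not taken to pair the arrays, had 6 with the block, FZD1 being added (0.29, limma adjusted p = 0.011). Over all genes, leaving out arrays gave 2405 to 3076, 4161 to 5634 and 4166 to 6028 calls in the 3 comparisons.

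Sign changes concerned differences that passed no test. With doxycycline over PS medium, leaving out arrays gave ranges of -0.22 to 0.0069 for FZD1, -0.076 to 0.062 for FZD3, -0.17 to 0.025 for FZD5 and -0.073 to 0.070 for FZD10. The range was -0.20 to 0.027 for FZD5 in PS medium over untreated cells, with 0.015 after median centring, and -0.17 to 0.11 for FZD2 with doxycycline over untreated cells. The cause was not tested. The root mean square difference of GJA5 from FZD7 was 0.41 with an offset of 64, which placed it at rank 43. Signal over background is not known for these arrays, which limits what dim genes can show.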
